A study of Mus musculus with 15 samples.

Results

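UO126, a blocker of the kinase MEK, was set against trichostatin A (TSA), a blocker of histone deacetylases, in primary mouse chondrocytes. The comparison rests on the arrays titled for these agents, 3 with UO126 and 3 with TSA of 15 arrays in all, and the 3 arrays with the vehicle DMSO served to sort genes that both agents moved the same way from genes that they moved oppositely. The cells were isolated from the cartilage of CD1 mice on embryonic day 15.5 and treated as a monolayer culture for 24 h. UO126 was used at 10 µM, and 1 of its labels (replicate 1) gives the time as up to 24 hours. The dose of TSA was not used here, since the labels leave its unit unclear, and each agent was given at a single dose, so potency cannot be compared. The medium of every group, the DMSO cultures included, held ascorbic acid and β-glycerophosphate, and the inhibitors were dissolved in DMSO. The other 6 arrays, with LY294002 or SB202190, entered the statistical model only to estimate the spread between arrays.

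MEK phosphorylates and activates the kinases ERK, which carry growth factor signals from RAS and RAF to transcription factors of the ETS and AP-1 families. Active ERK also switches on its own brakes, among them dual-specificity phosphatases and Sprouty proteins, and in cartilage this pathway is known to act on matrix genes and on the hypertrophic maturation of growth plate chondrocytes. Histone deacetylases remove acetyl groups from histones and from other proteins, and TSA, which leaves these groups in place, is known to raise genes that are normally silent in a tissue and to slow the cell cycle.

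Signals were available for 45101 probe sets on each array. For the labelled cell type, 27 cartilage genes were measured, with a summed signal of 40979.7 to 60239 on the DMSO arrays. TSA lowered 26 of them from DMSO, and UO126 lowered 0, which is a response and no test of the cell type. The one that TSA did not move past the threshold was the type II collagen gene Col2a1, which read 5023, 5779.5 and 7232 with UO126, 5455, 6477 and 4971 with TSA, and 3903, 6317 and 6880.1 with DMSO. The 3 groups overlapped for Col2a1, and UO126 minus TSA was 0.09 on the log2 scale with a 95% interval of -0.32 to 0.49. Median signals were 34.1 to 38.4 on the UO126 arrays and 34.3 to 37.9 on the TSA arrays. The ratio of 3′ to 5′ signal of β-actin, a sign of RNA integrity, was 1.22 to 1.29 with UO126, 1.25 to 1.36 with TSA and 1.23 to 1.27 with DMSO. In all of the following, log2 differences are given ± SE, n = 3 arrays in each group, folds are computed from the log2 difference, and a call means a limma adjusted p under 0.05. Signals under 50 lie below the level of the filter, so the size of a difference that involves them is imprecise. In RNA from a whole culture, fewer cells of a type and less RNA per cell cannot be told apart.

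UO126 and TSA left the chondrocytes with widely different transcripts. Of 11751 genes tested, 7005 (59.6%) differed between UO126 and TSA, 3409 (29.0%) being higher with UO126 and 3596 (30.6%) higher with TSA. A difference of at least 2-fold was found in 1120 and 1239 of these genes, and one of at least 4-fold in 262 and 355. Over probe sets, 11997 of 21765 (55.1%) passed. Counted by ratios of mean signals alone, 9919 of 21045 probe sets (47.1%) differed at least 1.4-fold and 4023 (19.1%) at least 2-fold. The signals of UO126 and TSA arrays correlated across probe sets with r of 0.836 to 0.851, against 0.974 to 0.976 among UO126 arrays, which is a description of the arrays.

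TSA moved far more genes from DMSO than UO126 did. With UO126, 405 genes (3.45%) passed against DMSO, 221 (1.88%) higher and 184 (1.57%) lower, and 27 and 47 of them moved at least 2-fold. With TSA, 6926 genes (58.9%) passed, 3593 (30.6%) higher and 3333 (28.4%) lower, and 1228 and 1069 moved at least 2-fold. Over probe sets, 584 (2.68%) passed with UO126. UO126 and DMSO arrays of the same number deviated together, and with the replicate number as a block this count was 1032, and 699 genes (5.95%) passed, 397 (3.38%) higher and 302 (2.57%) lower. The probe set count was 280 with arrays centred on the median, 335 without the LY294002 and SB202190 arrays in the fit, 359 without UO126 replicate 2, 321 without UO126 replicate 3, 373 without DMSO replicate 2 and 382 without DMSO replicate 3.

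Sorting the genes by both comparisons with DMSO gave 144 genes that UO126 and TSA moved the same way and 178 that they moved oppositely. With the replicate block these numbers were 256 and 302, with arrays centred on the median 65 and 80, and without the LY294002 and SB202190 arrays in the fit 80 and 100. With no filter, 118 were moved oppositely. Both agents raised 78 genes and both lowered 66. UO126 raised and TSA lowered 98 genes, and UO126 lowered and TSA raised 80. A further 45 genes were higher and 38 lower with UO126 while TSA did not pass. Both comparisons use the same DMSO arrays, so these counts are not independent of each other and were not tested. In the direct contrast every one of the 178 oppositely moved genes passed, as the sort nearly fixes, with a median UO126 minus TSA of 1.71 for the first kind and -1.88 for the second. The genes moved the same way were less uniform. Among the 78 genes raised by both, 35 were higher with TSA, 2 were higher with UO126 and 41 did not pass in the direct contrast. Among the 66 lowered by both, 32 were higher with UO126, so that TSA had lowered them further, 7 were higher with TSA and 27 did not pass. Without UO126 replicate 2 or 3, or DMSO replicate 2 or 3, the number moved the same way was 88, 69, 94 and 86. The number moved oppositely was 107 and 93 without UO126 replicate 2 or 3 and 107, 100 and 116 without DMSO replicate 1, 2 or 3.

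**Figure D1:**
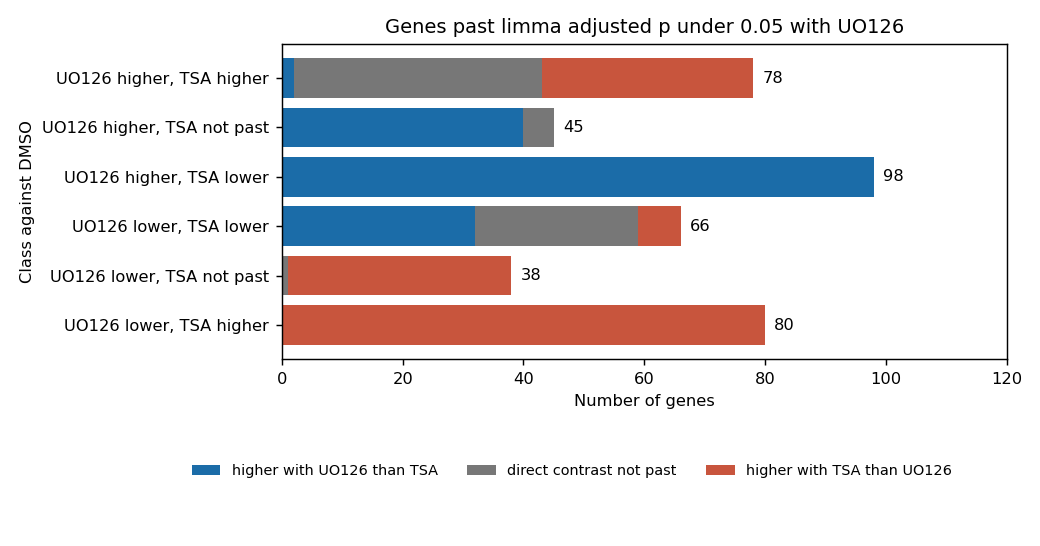
Number of genes that passed the threshold with UO126 against DMSO (horizontal axis), in 6 classes by their direction with UO126 and with TSA (vertical axis), and coloured by the direct contrast of UO126 with TSA. The 2 opposite classes, 98 and 80 genes, are of a single colour, whereas the classes of 78 and 66 genes moved the same way hold all 3 colours.

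The genes raised by UO126 and lowered by TSA were led by Smpd3, Fmod, Eln and C1qtnf3. Smpd3 encodes the neutral sphingomyelinase needed for mineralization of the skeleton. It read 942, 1088 and 1687 with UO126, 357, 409.6 and 672 with DMSO, and 77.1, 108 and 169 with TSA. Its log2 difference between UO126 and TSA was 3.42 ± 0.346 (adjusted p = 6.86e-07), with all 3 probe sets on the same side. Fibromodulin (Fmod), a small leucine-rich proteoglycan that binds collagen fibrils, read 1782, 1959 and 2314 with UO126, 699, 978 and 1003 with DMSO, and 202, 275 and 226 with TSA. It was thus 2.28-fold above DMSO with UO126 (adjusted p = 0.000566) and 3.79-fold below it with TSA (adjusted p = 8.03e-08). Elastin (Eln) read 863, 1034 and 952 with UO126, 341, 488 and 460.3 with DMSO, and 102, 153 and 133 with TSA. C1qtnf3, a secreted protein of the C1q and TNF related family that cartilage makes, showed the widest separation of these 4. Its 3 UO126 arrays gave 1818, 2459 and 2158, the DMSO arrays 957, 954 and 1041, and the TSA arrays 62.9, 45.2 and 62.2. UO126 raised it 2.16-fold (adjusted p = 0.000232) and TSA lowered it 17.5-fold (adjusted p = 7.9e-12), a gap of 37.9-fold between the agents.

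The other genes of this kind named by the rule were Pcsk6, a proprotein convertase, Kcnk2, a potassium channel, Limch1, a protein of the actomyosin cytoskeleton, and Colgalt2, which adds galactose to collagen. Pcsk6 lay at 404 to 581 with UO126, 186 to 228 with DMSO and 77.0 to 115 with TSA. Limch1 lay at 957 to 1105, 445 to 569.7 and 174 to 193. UO126 minus TSA ran from 2.32 ± 0.186 for Pcsk6 to 3.10 ± 0.252 for Colgalt2, whose TSA arrays (20.4 to 39.2) were all under 50. In a pair of these genes the call of a rise with UO126 was lost in fits that left an array out. In both, every UO126 array still lay above every DMSO array. The fits without an array, here and below, did not use the replicate block. The block ended no call of UO126 against DMSO among named and listed genes. For Smpd3 (adjusted p = 0.0459), leaving out any UO126 array, TSA replicate 2, or DMSO replicate 1 or 2 gave adjusted p of 0.0558 to 0.2 (9.03e-07 to 0.2 over all alternatives). For Colgalt2 (adjusted p = 0.0416), leaving out UO126 replicate 2 or 3, TSA replicate 1 or any DMSO array gave 0.0515 to 0.194 (0.00294 to 0.194 over all alternatives).

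The genes lowered by UO126 and raised by TSA were led by Krt18 and Sbsn and held a ligand and an inhibitor of the epidermal growth factor (EGF) receptor. Krt18, an intermediate filament keratin, read 80.1, 68.9 and 62.7 with UO126, 260.1, 249 and 229.6 with DMSO, and 1172, 1025 and 978 with TSA. It fell 3.50-fold with UO126 (adjusted p = 1.73e-06) and rose 4.29-fold with TSA (adjusted p = 1.69e-09). Suprabasin (Sbsn), a secreted protein of the epidermis, read 202, 167 and 127 with UO126, 488, 483 and 444 with DMSO, and 1933, 2110.1 and 1723 with TSA, and its 3 probe sets went the same way. Hbegf, a membrane-anchored ligand of the EGF receptor, read 146, 109 and 125 with UO126, 228, 233 and 292 with DMSO, and 1081, 1004 and 742 with TSA. Errfi1, an ERK-induced protein that binds the EGF receptor and inhibits it, read 451, 377 and 391, then 948, 857 and 963, then 3251, 3009 and 2732 in the same order of groups. Ligand and inhibitor moved the same way, Hbegf with a UO126 minus TSA of -2.89 ± 0.148 and Errfi1 with -2.88 ± 0.2. Met, the receptor of hepatocyte growth factor, lay at 79.4 to 144 with UO126, 210.2 to 288 with DMSO and 562 to 677 with TSA.

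The metal-binding metallothionein Mt1 read 349, 477 and 578 with UO126, 804, 1027 and 1122 with DMSO, and 5838, 5583 and 4432 with TSA, and the agents stood 11.4-fold apart (adjusted p = 2.93e-10). Plat, the tissue plasminogen activator, lay at 112 to 124 with UO126, 234 to 267 with DMSO and 1039 to 1249.6 with TSA. Guanine deaminase (Gda) lay at 37.1 to 53.4, 98.4 to 108 and 268 to 289. For all 16 genes of the 2 opposite kinds, no array of 1 group overlapped those of another, as the rule for naming them asked. Over all genes tested, arrays did not overlap in 65.9% between UO126 and TSA, 19.2% between UO126 and DMSO and 63.3% between TSA and DMSO.

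**Figure D2:**
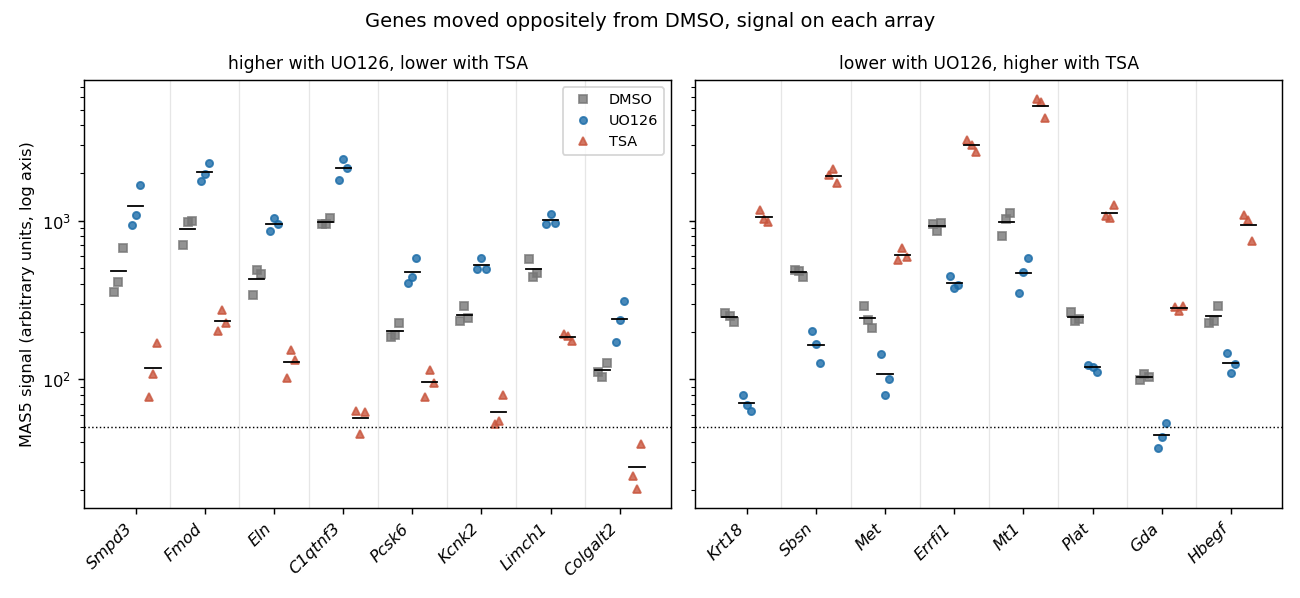
MAS5 signal (vertical log axis) on each of the 3 DMSO (squares), 3 UO126 (circles) and 3 TSA (triangles) arrays for the 8 leading genes of each opposite kind; short lines are group means and the dotted line marks a signal of 50. C1qtnf3 runs from 1818 or more with UO126 to 62.9 or less with TSA, and Mt1 from 578 or less with UO126 to 4432 or more with TSA.

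The promoters of the leading genes of the 2 opposite kinds are shown here so that the sequence before each start can be read beside its response. They are RefSeq sequences of build GRCm38.p6, 250 bases before the start and 50 after it, on the plus strand, and capitals mark matches on either strand to any of 6 motifs. Factors of the Sp family bind GGGCGG and AP-1 binds TGANTCA. CREB and ATF factors bind TGACGTCA. The E-box is CACGTG, and the others are the CCAAT box and the TATA box in the form TATAAA. Fmod (chr1:134037004-134037303), raised by UO126 and lowered by TSA, has a CCAAT match 34 bases after the start. Krt18 (chr15:102027966-102028265), lowered by UO126 and raised by TSA, has no match to these letters in the window. Sbsn (chr7:30751221-30751520), which moved like Krt18, has 2 TGANTCA matches, 119 and 6 bases before the start. The RefSeq table used here holds no promoter for Smpd3.
Fmod: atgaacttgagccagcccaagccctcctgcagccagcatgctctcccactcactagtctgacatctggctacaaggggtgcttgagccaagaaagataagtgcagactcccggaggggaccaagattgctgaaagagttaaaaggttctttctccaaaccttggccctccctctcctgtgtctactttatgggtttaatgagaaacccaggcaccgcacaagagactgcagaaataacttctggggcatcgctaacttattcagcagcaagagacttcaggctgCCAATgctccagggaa
Krt18: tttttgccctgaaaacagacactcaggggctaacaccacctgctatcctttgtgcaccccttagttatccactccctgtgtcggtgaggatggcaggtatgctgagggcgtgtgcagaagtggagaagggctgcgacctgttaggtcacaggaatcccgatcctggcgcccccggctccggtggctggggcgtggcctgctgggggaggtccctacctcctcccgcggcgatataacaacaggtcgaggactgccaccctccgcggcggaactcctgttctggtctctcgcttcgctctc
Sbsn: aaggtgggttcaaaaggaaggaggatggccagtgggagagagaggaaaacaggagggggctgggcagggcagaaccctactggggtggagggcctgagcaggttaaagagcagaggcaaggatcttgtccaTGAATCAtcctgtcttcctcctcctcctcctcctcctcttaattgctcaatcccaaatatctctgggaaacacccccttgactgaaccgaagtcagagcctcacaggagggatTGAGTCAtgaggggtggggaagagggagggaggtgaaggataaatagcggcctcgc

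Promoters were listed for 62 of the 80 genes lowered by UO126 and raised by TSA, and 9 of them (14.5%) held TGANTCA. Among the 73 listed of the 98 genes raised by UO126 and lowered by TSA, 2 (2.74%) held it. The share was 8 of 56 (14.3%) for genes lowered by both agents and 2 of 64 (3.12%) for genes raised by both. It was 4.70% over the 9517 tested genes with a listed promoter and 7.81% over all 32851 promoters. GGGCGG was in 71.0% and 54.8% of the promoters of the 2 opposite kinds in that order, against 65.9% for tested genes. TATAAA was in 17.7% of the promoters of genes lowered by UO126 and raised by TSA and in 9.59% for the other opposite kind. Its share was 9.38% for genes raised by both, 10.7% for genes lowered by both and 7.16% for tested genes. These shares were not tested, and a match is not a site of binding.

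Both agents raised Igfbp2, Nnat, Klf2, Sort1, Gstm1, Cpm, Megf9 and Fhl1. Igfbp2, which binds insulin-like growth factors, read 466, 904 and 702 with UO126, 1179, 1756 and 1273 with TSA, and 203, 258 and 263 with DMSO. Neuronatin (Nnat), an imprinted gene of neuroendocrine cells, read 136, 128 and 149.5 with UO126, 840.1, 722 and 717 with TSA, and 47.2, 39.8 and 61.8 with DMSO. Klf2, a zinc finger transcription factor, read 397, 519 and 438 with UO126, 826, 797 and 594 with TSA, and 232, 249 and 249.6 with DMSO. In each of these the TSA arrays lay above the UO126 arrays, with UO126 minus TSA of -1.05 ± 0.213 for Igfbp2 (adjusted p = 0.000616), -2.46 ± 0.157 for Nnat (adjusted p = 4.48e-09) and -0.70 ± 0.151 for Klf2 (adjusted p = 0.000986).

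The sorting receptor Sort1 and the glutathione transferase Gstm1 followed the same order. Sort1 lay at 274 to 325 with UO126, 582 to 644 with TSA and 157 to 171 with DMSO, with all 3 probe sets passing. Gstm1 lay at 721 to 851, 1375 to 1447 and 416 to 539, with all 4 probe sets passing. Carboxypeptidase M (Cpm) also rose further with TSA, and its rise with UO126 (log2 difference 0.76, adjusted p = 0.0112) was lost without UO126 replicate 3 or DMSO replicate 3 (adjusted p of 0.0543 and 0.0548, and 0.00421 to 0.0548 over all alternatives). Megf9, a membrane protein with EGF-like domains, and Fhl1, a LIM-domain protein, were the ones whose UO126 and TSA arrays overlapped. Megf9 lay at 223 to 258 with UO126, 255 to 279.9 with TSA and 111 to 159.6 with DMSO. The interval of UO126 minus TSA was -0.44 to 0.12 for Megf9 and -0.35 to 0.23 for Fhl1.

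Both agents lowered Klk10, Il1rn, Fosl1, Cytl1, Nab2, Igfbp6, Anxa8 and Fxyd5. Il1rn, the interleukin-1 receptor antagonist, read 86.6, 101 and 99.8 with UO126, 112, 142 and 111 with TSA, and 324, 332 and 362 with DMSO. It fell 3.54-fold with UO126 (adjusted p = 5.11e-06) and 2.80-fold with TSA (adjusted p = 2.87e-07). The gap between the agents was small (UO126 minus TSA -0.34 ± 0.138, adjusted p = 0.0494), 1 of its 3 probe sets passed in it, and the call ended without TSA replicate 2 or any UO126 or DMSO array (adjusted p of 0.055 to 0.216, and 0.0204 to 0.216 over all alternatives). Fosl1, an AP-1 subunit that ERK induces and stabilizes, read 123, 173 and 128 with UO126, 88.6, 92.7 and 98.5 with TSA, and 282, 324 and 371 with DMSO. Nab2, a corepressor of Egr factors, read 305, 270.1 and 308 with UO126, 265, 272 and 248 with TSA, and 586, 570.0 and 567 with DMSO. For Nab2 the UO126 and TSA arrays overlapped, with an interval of -0.04 to 0.37.

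For Klk10, Cytl1 and Anxa8 the fall with TSA was much the deeper. Klk10, a kallikrein protease, read 218, 194 and 299 with UO126, 47.0, 64.7 and 57.0 with TSA, and 762, 574 and 970.3 with DMSO. Cytl1, a secreted cytokine-like protein of chondrocytes, read 527, 569 and 747, then 97.5, 121 and 186, then 1092, 1264 and 1538 in the same order. UO126 minus TSA was 2.06 ± 0.224 for Klk10, 2.23 ± 0.204 for Cytl1 and 1.64 ± 0.159 for the annexin Anxa8, with adjusted p of 1.46e-06, 2.32e-07 and 4.42e-07. Igfbp6, another IGF-binding protein, lay at 187 to 208 with UO126, 91.7 to 115 with TSA and 321 to 400.0 with DMSO, so that Igfbp2 and Igfbp6 of 1 family were moved up and down by both agents. The membrane protein Fxyd5 fell 1.79-fold with UO126 and 2.20-fold with TSA. Its gap between the agents (0.29, adjusted p = 0.0341) was lost without any UO126 array or TSA replicate 1 or 2 (adjusted p of 0.0587 to 0.137, and 0.00574 to 0.137 over all alternatives).

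**Figure D3:**
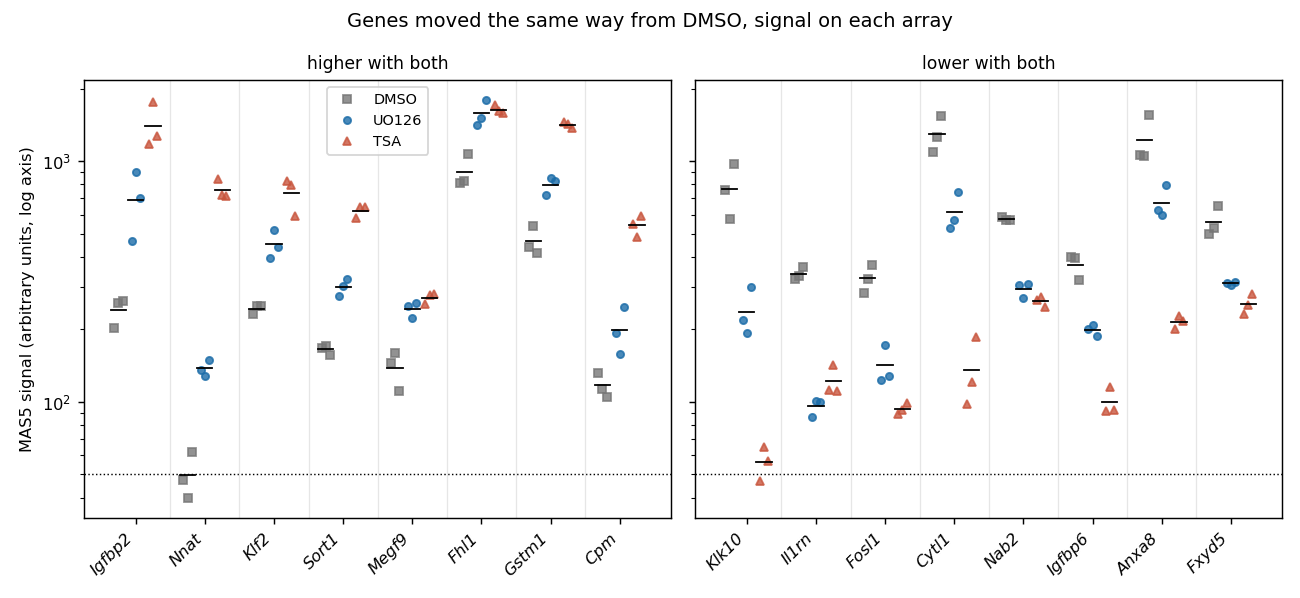
MAS5 signal (vertical log axis) on each DMSO (squares), UO126 (circles) and TSA (triangles) array, 3 of each, for the 8 leading genes raised by both agents and the 8 lowered by both; short lines are group means and the dotted line marks a signal of 50. TSA lies beyond UO126 for Nnat and Klk10, whereas Megf9, Fhl1 and Nab2 have overlapping UO126 and TSA arrays.

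Of the 83 genes that passed with UO126 and not with TSA, 40 of the 45 higher and 37 of the 38 lower also passed in the direct contrast. The sort largely fixes this, since their median TSA minus DMSO was -0.02 and 0.08. The raised ones included Chrdl1, Nrk and Nid2. Chrdl1, an antagonist of bone morphogenetic proteins, read 235, 279.6 and 240.5 with UO126, 85.0, 77.3 and 88.3 with TSA, and 114, 111 and 89.6 with DMSO. Its TSA minus DMSO was -0.32 with an interval of -0.61 to -0.04 and an adjusted p of 0.0537, so a fall with TSA was just short of the threshold. Nrk, a protein kinase, read 1734, 1820.4 and 1946 with UO126, 1084, 1178 and 1207 with TSA, and 976, 1194 and 991 with DMSO. Nid2, a basement membrane nidogen, read 709, 737 and 937, then 395, 433 and 499, then 427, 443 and 513 in that order. TSA and DMSO arrays overlapped for Nrk and Nid2, with intervals of -0.10 to 0.37 and -0.35 to 0.22. Megf6 rose 2.36-fold with UO126 and Npr3, the clearance receptor of natriuretic peptides, 2.13-fold. The rise of the LIM-domain protein Lmcd1 with UO126 (0.81, adjusted p = 0.0453) was lost without UO126 replicate 2 or 3, TSA replicate 1 or DMSO replicate 1 or 2 (adjusted p of 0.0578 to 0.179, and 0.000306 to 0.179 over all alternatives).

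The lowered ones were led by Prg4, which encodes the joint lubricant lubricin, and by the transcription factor Mitf. Prg4 read 119, 132 and 102 with UO126, 242, 523 and 425 with TSA, and 352, 338 and 386 with DMSO. Mitf read 162, 110.1 and 118 with UO126, 346, 451 and 412 with TSA, and 373, 399 and 368 with DMSO. Both fell with UO126, Prg4 3.07-fold (adjusted p = 0.0006) and Mitf 2.96-fold (adjusted p = 5.38e-05), while TSA minus DMSO was 0.07 (interval -0.39 to 0.54) and 0.08 (-0.26 to 0.42). Socs3, an inhibitor of cytokine signalling, read 397, 282 and 390.3 with UO126, 1588, 1674 and 885 with TSA, and 1017, 994 and 926 with DMSO. On TSA replicate 3 it lay under all DMSO arrays and on the other TSA arrays above them. Epiregulin (Ereg), an EGF receptor ligand like Hbegf, read 188, 185 and 149 with UO126, 379, 283 and 287 with TSA, and 401, 374 and 426 with DMSO. Hbegf and Ereg thus both fell with UO126, and TSA raised Hbegf but left Ereg at a TSA minus DMSO of -0.35 (interval -0.75 to 0.05). Klhdc8a and Ier5l fell 2.09-fold and 1.86-fold with UO126. The fall of Ier5l (adjusted p = 0.0132) was lost without UO126 replicate 1 or DMSO replicate 2 or 3 (adjusted p of 0.0593 to 0.0663, and 0.00782 to 0.0663 over all alternatives), and its gap to TSA (-0.48, adjusted p = 0.0354) without UO126 replicate 1 or TSA replicate 1 or 2 (0.0559 to 0.188, and 0.013 to 0.188 over all alternatives).

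**Figure D4:**
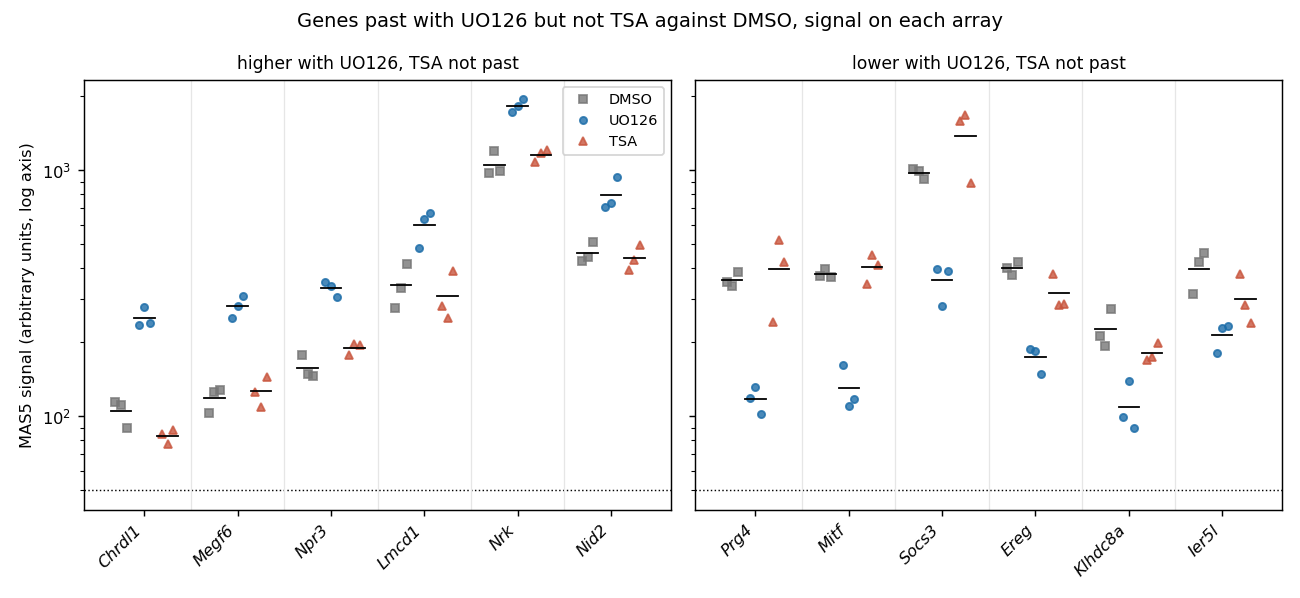
MAS5 signal (vertical log axis) on each DMSO (squares), UO126 (circles) and TSA (triangles) array, 3 of each, for the 6 leading genes raised and the 6 lowered by UO126 that did not pass with TSA and differed between the agents; short lines are group means and the dotted line marks a signal of 50. UO126 stands apart for Nrk at 1734 to 1946 and for Mitf at 110.1 to 162, with TSA and DMSO arrays overlapping.

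Of the 10 genes named by the rule as furthest above TSA with UO126, C1qtnf3 and Srpx were raised by UO126 and 8 did not pass against DMSO. Aspn (asporin), a small leucine-rich proteoglycan, read 1304, 1060.1 and 811 with UO126, 749, 796 and 549 with DMSO, and 14.3, 15.6 and 13.7 with TSA. Ucma, a Gla-rich protein secreted by chondrocytes, read 1100.2, 1111 and 1096 with UO126, 774, 725 and 899.7 with DMSO, and 38.4, 47.3 and 53.9 with TSA. Igfbp5 read 2188, 2915 and 3178 with UO126, 1890.1, 2301 and 2605 with DMSO, and 112, 114 and 115 with TSA. For these the UO126 minus DMSO differences, 0.59, 0.47 and 0.28, did not pass (adjusted p of 0.242, 0.0544 and 0.322), although with the replicate block those of Aspn and Ucma did (adjusted p of 0.0169 and 0.00985), and the gaps to TSA were 71.5-fold, 23.9-fold and 23.9-fold. Scrg1, the matrilins Matn1 and Matn3, Emilin1 of elastic fibres and Ccn5 were 14.6-fold to 24.3-fold higher with UO126 than with TSA, and their differences from DMSO with UO126 did not pass, with the exception of Matn1 and Emilin1 in the fit with the replicate block (adjusted p of 0.00302 and 0.0292). Srpx was 21.6-fold higher, and its rise with UO126 (0.74, adjusted p = 0.0232) was lost without UO126 replicate 2 or 3 or DMSO replicate 1 or 2 (adjusted p of 0.0739 to 0.118, and 0.000796 to 0.118 over all alternatives).

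Of the 10 named as furthest above UO126 with TSA, Krt18, Sbsn and Cystm1 were lowered by UO126 and 7 did not pass against DMSO. Uchl1, a ubiquitin hydrolase abundant in neurons, read 1278, 1241 and 1095 with TSA, 62.7, 59.4 and 46.7 with UO126, and 61.6, 56.2 and 63.5 with DMSO. Bex1, a small protein of the brain, read 4895, 5214 and 4297 with TSA, 566, 379 and 267 with UO126, and 480.5, 262 and 183 with DMSO. Cystm1, a small membrane protein, read 1432, 1422 and 1527 with TSA, 81.0, 56.8 and 62.8 with UO126, and 114, 84.3 and 99.8 with DMSO. UO126 and DMSO arrays overlapped for Uchl1 and Bex1. The keratin Krt19, the keratin-associated gene Krtap1-5, Bex4, the mitochondrial protein Chchd10 and the adhesion molecule Cadm4 stood 11.9-fold to 25.8-fold higher with TSA than with UO126. The fall of Cystm1 with UO126 (-0.58, adjusted p = 0.0414) was lost without UO126 replicate 2 or 3, DMSO replicate 1 or 3 or any TSA array (adjusted p of 0.0573 to 0.166, and 0.0136 to 0.201 over all alternatives).

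Gene lists were read against the shares over all genes tested, 29.0% higher with UO126 and 30.6% higher with TSA, with a median difference of 0.00. Of 18 measured ERK feedback and output genes, 4 were higher with UO126 and 10 with TSA, and the median UO126 minus TSA was -0.39. Against DMSO, UO126 lowered 5 and raised 0 of them, while TSA raised 7 and lowered 6. Over all genes tested, UO126 lowered 1.57% and raised 1.88%, or 2.57% and 3.38% with the replicate block. TSA raised 30.6% and lowered 28.4% of all genes, so its counts in this list were near these shares. Dusp6, the ERK-specific phosphatase of the cytoplasm, read 238, 259.6 and 196 with UO126, 498, 481 and 432 with DMSO, and 1094, 842 and 664 with TSA. Phlda1 read 544, 636 and 600.1 with UO126, 877, 951 and 853 with DMSO, and 2536, 2355 and 2246 with TSA. Dusp4, a nuclear phosphatase of ERK, was under 50 with UO126 (10.2, 12.1 and 14.1) and DMSO (24.1, 29.0 and 30.8) and reached 119.8, 82.2 and 121 with TSA. Dusp4, Dusp6 and Phlda1 were moved oppositely, and Etv5 and Fosl1 were lowered by both. Cyclin D1 (Ccnd1), an output of ERK, went the other way, at 1420.4 to 1782 with UO126 and 608 to 679 with TSA. UO126 did not lower it past the threshold (-0.24, adjusted p = 0.221). The UO126 calls were lost for Dusp6 without any UO126 or DMSO array (adjusted p of 0.0558 to 0.131, and 0.000455 to 0.131 over all alternatives), for Dusp4 without UO126 replicate 1 or DMSO replicate 2 or 3 (0.0524 to 0.0626, up to 1), and for Phlda1 without UO126 replicate 1 or 3 or DMSO replicate 1 or 2 (0.053 to 0.0912, 0.00733 to 0.0912).

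Immediate early and AP-1 genes, which ERK and other kinases switch on within minutes, were higher with TSA in 21 of 29 and higher with UO126 in 1, Fosl1. Their median UO126 minus TSA was -1.02. For Fosl1, 1 of 2 probe sets passed in the direct contrast. Ier3 read 816, 871 and 605 with UO126, 659, 719 and 562 with DMSO, and 3570.2, 3597 and 2382 with TSA. Fos itself was uneven between replicates, at 604, 635 and 161 with UO126 and 2175, 3033 and 795 with TSA, replicate 3 being the lowest in each. Its gap (-2.14, adjusted p = 0.0221) was lost without UO126 replicate 3 or TSA replicate 1 or 2 (adjusted p of 0.0671 to 0.118, and 3.47e-05 to 0.118 over all alternatives). After 24 h, UO126 lowered 2 of the 29, Fosl1 and Klf10, and raised Klf2. With the replicate block UO126 also lowered Egr1 (-0.92, adjusted p of 0.442 without the block and 0.0289 with it). Klf10 lay at 171 to 243 with UO126, 288 to 353 with DMSO and 543 to 647 with TSA, and its fall with UO126 (adjusted p = 0.019) was lost without UO126 replicate 2 or DMSO replicate 1 or 3 (0.0622 to 0.0821, and 0.00674 to 0.154 over all alternatives).

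The genes of the RAS to ERK cascade themselves differed in 11 of 20, 3 higher with UO126 and 8 with TSA, a share near that of all genes. UO126 moved 0 of them from DMSO, against 3.45% of all genes. Map2k1, which encodes a MEK kinase that UO126 blocks, read 555, 569.8 and 571 with UO126, 586, 593 and 611 with DMSO, and 1011, 979 and 1002 with TSA. Mknk2, a kinase downstream of ERK that acts on translation, lay at 739.7 to 881 with UO126 and 1929.7 to 2443 with TSA. Of the 7 measured EGF family ligands and receptors, 1 was higher with UO126 and 3 with TSA. Erbb3 was at 27.5 to 42.9 with UO126 and 194 to 213 with TSA, and Erbb2 went the other way, at 162 to 182 and 105 to 122. The EGF receptor gene Egfr did not pass between the agents (-0.24, interval -0.45 to -0.02, adjusted p = 0.0584). Against DMSO, UO126 lowered Hbegf and Ereg. With the replicate block it also lowered Egfr (-0.39, adjusted p of 0.0532 without the block and 0.0351 with it).

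**Figure D5:**
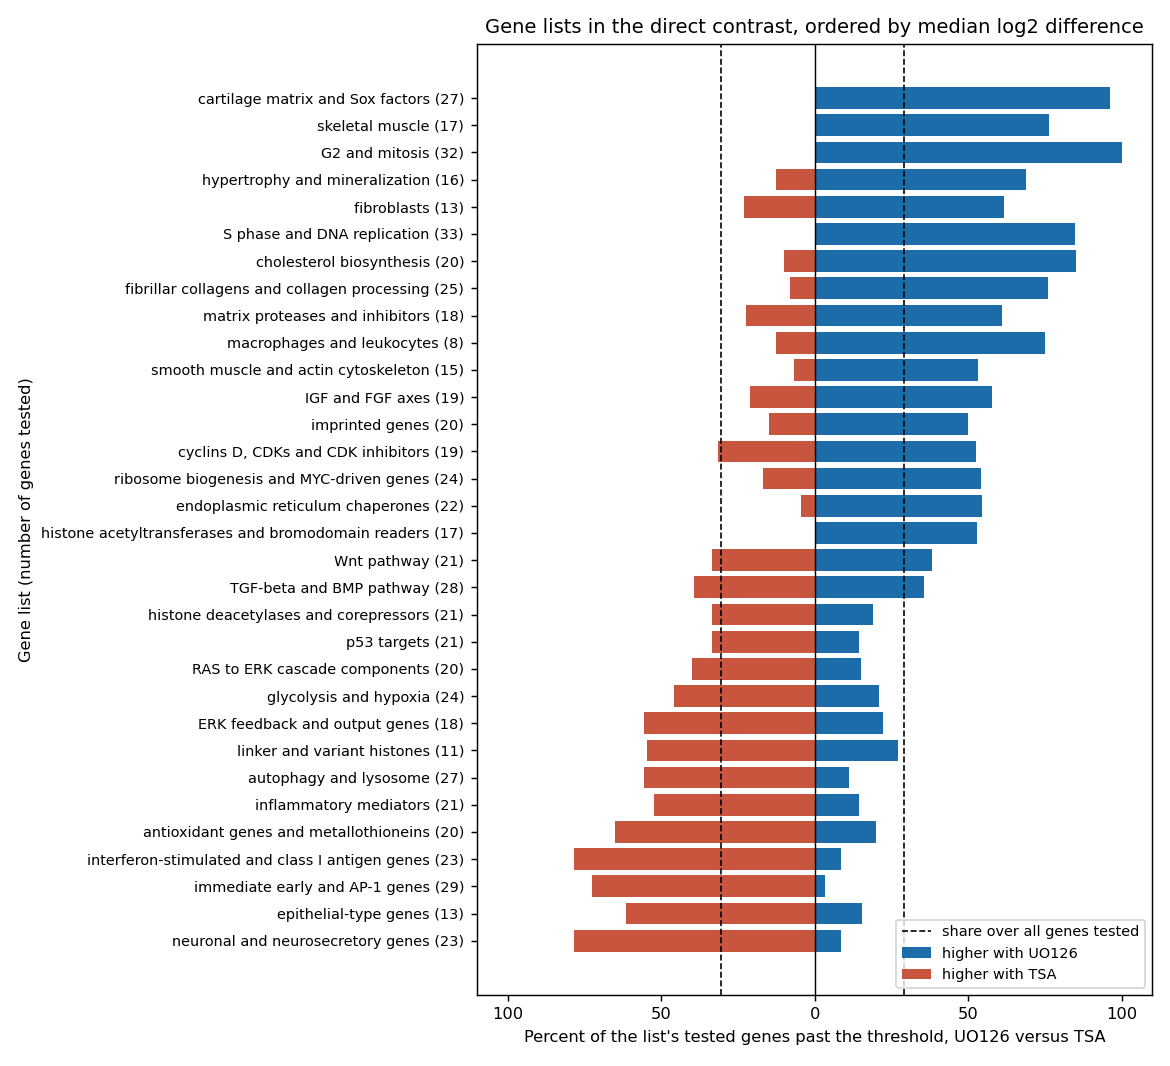
Percent of the tested genes of each list that were higher with UO126 (right, blue) or higher with TSA (left, red) in the direct contrast, for lists with 8 or more genes tested (number in brackets), ordered by the median log2 difference; dashed lines mark the shares over all genes tested, 29.0% and 30.6%. Cartilage, muscle and cell division lists lie to the right and neuronal, epithelial-type and immediate early lists to the left.

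Genes for the targets of TSA and for other histone regulators were read beside the 59.6% of all genes that differed between the agents. Of 21 genes for histone deacetylases and their corepressors, 4 were higher with UO126 and 7 with TSA, with a median of -0.02. This share was near that of all genes. UO126 moved 0 of them from DMSO, against 3.45% of all genes. Hdac1 lay at 1020.2 to 1192 with UO126 and 1397 to 1487 with TSA, and Hdac2, its close relative, at 1351 to 1371 and 1093 to 1146. The difference of UO126 minus TSA was -0.40 ± 0.0919 for Hdac1 (adjusted p = 0.00161) and 0.29 ± 0.0686 for Hdac2 (adjusted p = 0.00222), so these partners went opposite ways. Of 17 acetyltransferases and bromodomain proteins, which write and read acetyl groups, 9 were higher with UO126 and 0 with TSA. Over all genes tested these shares were 29.0% and 30.6%. Crebbp read 423, 418 and 392 with UO126 and 254, 263 and 254 with TSA, and 1 of its 3 probe sets passed. For Ep300 (0.28, adjusted p = 0.0308) the call was lost without UO126 replicate 1 or 3 or TSA replicate 1 or 2 (adjusted p of 0.0607 to 0.14, and 0.0111 to 0.14 over all alternatives), and for Kat2a (0.37, adjusted p = 0.019) without UO126 replicate 1 or TSA replicate 1 (0.0545 and 0.117, and 0.00704 to 0.117).

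Histone genes, a list of linker histones, core variants and some replication-coupled forms, were higher with TSA in 6 of 11 and with UO126 in 3. H2aj read 677, 632 and 685 with UO126, 925, 854 and 996 with DMSO, and 2289, 2224 and 2004 with TSA, so it was lowered by UO126 (adjusted p = 0.00475) and raised by TSA (adjusted p = 8.21e-09). Macroh2a2, a variant of repressed chromatin, lay at 396 to 422 with UO126 and 67.4 to 109 with TSA. H2ax, which marks DNA breaks when phosphorylated, lay at 926 to 1179 and 371 to 421. H2az1 passed narrowly (0.32, adjusted p = 0.0473), and the call was lost without UO126 replicate 1 or 3, TSA replicate 3 or DMSO replicate 2 or 3 (0.0519 to 0.274, and 0.0161 to 0.274 over all alternatives).

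Cartilage matrix and Sox genes were higher with UO126 in 26 of 27, with a median of 2.85, and Col2a1 was the one that did not pass. Against DMSO, UO126 raised 4 (Col9a2, Fmod, Fgfr3 and Wwp2) and TSA lowered 26. The UO126 minus DMSO values were above 0 for all 27, with a median of 0.42, while 5598 of all 11751 genes tested were below 0. Of the 27, 4 passed, or 13 with the replicate block, against 1.88% and 3.38% of all genes raised. These 13 included Acan (0.59, adjusted p of 0.18 without the block and 0.00377 with it) and the collagens Col9a3 (0.69, 0.175 and 0.000111) and Col11a2 (0.76, 0.2 and 0.000422). Wwp2, a ubiquitin ligase whose gene hosts a cartilage microRNA, read 1533, 1681 and 1706 with UO126, 1168, 1188 and 1309 with DMSO, and 210.3, 265 and 280.1 with TSA. Fgfr3, the FGF receptor that slows growth plate proliferation, read 1753, 1701 and 1916 with UO126, 1079, 1002 and 1193 with DMSO, and 409.6, 430.2 and 526 with TSA. Aggrecan (Acan), the main cartilage proteoglycan, and Sox9, the master factor of chondrocytes, had UO126 minus TSA of 2.85 and 1.55. The summed signal of the list was 58775 to 79389.5 with UO126, 40979.7 to 60239 with DMSO and 18774 to 22657 with TSA. The rise of Wwp2 with UO126 (0.42, adjusted p = 0.0291) was lost without UO126 replicate 2 or 3 or DMSO replicate 1 or 2 (adjusted p of 0.0911 to 0.111, and 0.00663 to 0.118 over all alternatives).

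Hypertrophy and mineralization genes were higher with UO126 in 11 of 16 and with TSA in 2, with a median of 1.27. Panx3, a channel of prehypertrophic chondrocytes and osteoblasts, read 786, 857 and 1237 with UO126, 428, 412 and 550.3 with DMSO, and 32.1, 40.0 and 119 with TSA. Indian hedgehog (Ihh), the signal of prehypertrophic cells, read 153, 169 and 304 with UO126, 69.2, 88.9 and 146 with DMSO, and 38.8, 48.3 and 41.9 with TSA. The UO126 minus DMSO differences of Panx3 (1.03, adjusted p = 0.19) and Ihh (1.04, adjusted p = 0.0681) did not pass in the fit without the block. With the replicate number of these paired arrays as a block both passed (adjusted p of 0.0131 and 0.00729), and UO126 raised 8 of the 16 genes, against 2 without the block. Over all genes tested, UO126 raised 3.38% with the block and 1.88% without it. In both fits UO126 lowered 1 gene of the list, Ank, which TSA lowered too. Col10a1, the type X collagen of hypertrophic chondrocytes, was highest on replicate 3 of every group, at 659.8, 819 and 2061 with UO126, 375, 515 and 916 with TSA, and 219.8, 374 and 1049 with DMSO. Its groups overlapped, and UO126 minus TSA (0.89 ± 0.559) did not pass in the fit without the block (adjusted p = 0.195). Each UO126 array lay above the TSA array of its number, but arrays of these 2 groups were not taken as paired. UO126 minus DMSO was 1.23 with an adjusted p of 0.336 without the block and 0.000306 with it. The other genes raised with the block were Pth1r, the receptor of parathyroid hormone and its related protein, Alpl, the tissue-nonspecific alkaline phosphatase, the transcription factor Mef2c, Cd200 and Smpd3.

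Genes for fibrillar collagens and their processing were higher with UO126 in 19 of 25 and with TSA in 2. The most abundant, Col1a1 and Col1a2, did not pass (0.39 and 0.24, adjusted p of 0.0779 and 0.214). Loxl3, a lysyl oxidase, lay at 1027 to 1535 with UO126 and 149 to 181 with TSA, and P4ha1, a prolyl hydroxylase, at 1120.4 to 1319.9 and 513 to 553. Matrix proteases and their inhibitors were higher with UO126 in 11 of 18 and with TSA in 4. Adamts5, the main mouse aggrecanase, read 661, 565 and 598 with UO126, 501, 440.1 and 422 with DMSO, and 151, 182 and 203 with TSA, and Mmp2 lay at 1569 to 1735 with UO126 and 582 to 673 with TSA. Plat, in the same list, was the oppositely moved member described above.

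Cell division genes separated the agents in a single direction. All 32 measured genes of G2 and mitosis were higher with UO126 than TSA, with a median of 1.80, and 28 of 33 S phase genes were higher with UO126 and 0 with TSA, with a median of 1.00. Against DMSO, UO126 moved 0 of either list past the threshold, against 3.45% of all genes. Its difference was below 0 for all 32 (median -0.18) and for 29 of 33 (median -0.21), against 5598 of all 11751 genes tested. The genes were read on the same arrays, so these signs are not independent of each other. With the replicate block UO126 lowered 2 of each, Birc5 and Nek2 of mitosis and Rfc3 and Lig1 of replication. TSA lowered 32 and 30. Ccna2, the cyclin of S phase and G2, read 903, 790.4 and 934 with UO126, 972, 1019.5 and 1026 with DMSO, and 125, 144 and 148 with TSA. Thymidine kinase (Tk1) read 594, 601 and 516 with UO126, 722, 682 and 925 with DMSO, and 61.6, 51.8 and 43.3 with TSA. Of the D cyclins, CDKs and their inhibitors, 10 of 19 were higher with UO126 and 6 with TSA. The retinoblastoma gene Rb1 lay at 242 to 299 with UO126 and 796 to 821 with TSA, and its relative Rbl1 went the other way, at 224 to 257 and 99.8 to 106. The CDK inhibitor Cdkn1a, a frequent target of deacetylase inhibitors, did not pass (-0.22, interval -0.66 to 0.22), at 1309 to 1768 with UO126 and 1529 to 2019 with TSA.

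Metabolic and stress lists went both ways. Cholesterol synthesis genes were higher with UO126 in 17 of 20 and with TSA in 2, for instance Cyp51 at 777 to 961 against 191 to 219.8. Chaperones of the endoplasmic reticulum were higher with UO126 in 12 of 22 and with TSA in 1. Antioxidant genes and metallothioneins were higher with TSA in 13 of 20 and with UO126 in 4. Mt2 read 673, 1031 and 679 with UO126, 1269, 1261 and 1825 with DMSO, and 6025, 5329.7 and 4757 with TSA, and it was moved oppositely like Mt1, as was Nfe2l2, the antioxidant transcription factor. The fall of Mt2 with UO126 (adjusted p = 0.0135) was lost without UO126 replicate 1 or 3 or DMSO replicate 3 (0.0615 to 0.0726, and 0.00384 to 0.0726 over all alternatives). Gstm1 and Srxn1 of this list were raised by both agents. Glycolysis and hypoxia genes were higher with TSA in 11 of 24 and with UO126 in 5, the glucose carrier Slc2a3 lying at 581 to 624 with TSA and 80.6 to 95.3 with UO126. Autophagy and lysosome genes were higher with TSA in 15 of 27 and with UO126 in 3, with cathepsin L (Ctsl) at 3599 to 4783 against 1857 to 1946.

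Markers of other cell types also differed, and their part in the differences above was not tested. Neuronal and neurosecretory genes were higher with TSA in 18 of 23 and with UO126 in 2, with a summed signal of 12239 to 13562 with TSA, 2741 to 3056 with UO126 and 2524 to 3029.7 with DMSO. Vgf, a neurosecretory protein, was at 8.34 to 11.8 with UO126 and 309 to 357 with TSA. Epithelial-type genes were higher with TSA in 8 of 13 and with UO126 in 2, Klk10 and Krt7. Cdh1, the defining cadherin of epithelia, was at 10.4 to 14.2 with UO126, 10.9 to 19.7 with DMSO and 66.0 to 96.4 with TSA. Skeletal muscle genes were higher with UO126 in 13 of 17 and with TSA in 0, with a summed signal of 2039.9 to 4383 with UO126, 1597 to 3565 with DMSO and 543 to 631 with TSA.

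Smooth muscle and actin genes were higher with UO126 in 8 of 15 and with TSA in 1, and 4 of them were raised by UO126 and lowered by TSA. Myl9, a myosin light chain, read 1981, 2079.8 and 2194 with UO126, 964, 1161 and 1096 with DMSO, and 232, 263 and 236 with TSA. Acta2, smooth muscle actin, read 4529.9, 4301 and 5098 with UO126, 2847, 3297 and 3549 with DMSO, and 2292, 1959 and 1665 with TSA. Tagln and Actg2 were the others. The UO126 calls were lost for Acta2 without UO126 replicate 1 or 3 or DMSO replicate 1 or 2, for Tagln without UO126 replicate 2 or 3, TSA replicate 1 or 2, or DMSO replicate 1 or 2, and for Actg2 without UO126 replicate 2 or 3 or DMSO replicate 1 or 2 (adjusted p of 0.0551 to 0.107, 0.0501 to 0.165 and 0.0629 to 0.0886, with 0.00487 to 0.107, 0.00632 to 0.165 and 0.00338 to 0.0886 over all alternatives). Macrophage genes were higher with UO126 in 6 of 8 and with TSA in 1, Cd68, and their summed signal was 827 to 1018 with UO126, 936 to 1082 with DMSO and 656 to 730.0 with TSA. Fibroblast genes were higher with UO126 in 8 of 13 and with TSA in 3, with lumican (Lum) at 2305 to 2492 against 588 to 785 and Thy1 the other way at 298 to 307 against 773 to 879.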

How the data were processed

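RNA from 15 chondrocyte cultures in 5 groups of 3 was hybridized to Affymetrix Mouse Genome 430 2.0 arrays. The values deposited by the authors are MAS5 signal intensities on a linear scale, in which probes are combined per probe set and each array is scaled. The mean signal, with 2% trimmed at each end, was 150.0 on every array, so a change common to all transcripts cannot be seen, and no detection calls were used. The series describes biological replicates. The p-values measure the spread between these arrays, and 3 arrays a group limit the precision.

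Of 45101 probe sets, 34958 had 1 gene symbol, 932 several and 9211 none listed; 99.4% of the single symbols matched RefSeq by gene ID. The 64 control probe sets were left out. A probe set was tested when a group mean reached 50 in at least 1 of 5 groups (21765 probe sets, 11751 genes), and a gene was represented by its probe set of highest mean log2 signal. Of 5037 genes with several probe sets, 82 had probe sets past the threshold in opposite directions. Signals under 1 were set to 1. A linear model of 5 groups was fitted to log2 signal with limma 3.58.1 in R 4.3.3 (empirical Bayes, variance trend), tested on simulated data, with two-sided p adjusted by Benjamini-Hochberg over all probe sets within a comparison and a threshold of 0.05. Tables and figures were made with Python 3.11.15.

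The members and the 38 gene lists were chosen with earlier results of these data known. List genes without a single-symbol probe set or under the filter were not analysed here. The rule named the 10 widest differences in each direction between the agents where the higher group averaged 200 or more and arrays did not overlap, 8 genes of each of the 4 sorts against DMSO, 6 in each direction with UO126 but not TSA past, and for each list up to 4 members by smallest p and 2 further in list order, predicted genes being passed over. Members of small counts were also named, chosen after their values were seen.

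Arrays of the same number were taken as paired where all 3 correlations of their deviations from the group means were over 0.1, from the data and not the labels. These were 0.419, 0.235 and 0.223 for UO126 with DMSO (taken as paired). They were 0.094, 0.132 and 0.143 for UO126 with TSA, and 0.096, 0.169 and 0.048 for TSA with DMSO, neither being taken as paired. The highest correlations of UO126 arrays with a differently numbered TSA array were 0.003, 0.015 and -0.036. Same-numbered UO126 and TSA arrays thus deviated together weakly. For TSA with DMSO the highest were 0.006, 0.061 and 0.113. Alternatives were quantile normalization, centring on the median, other filters (none, a mean of 50 in 2 groups, a mean of 100), signals under 50 set to 50, an offset of 16 before log2, a constant prior variance, a fit without LY294002 and SB202190, the replicate block, and leaving out each array.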

Additional observations from a re-analysis of the deposited data

How the results depend on the processing

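The counts of UO126 against TSA and of TSA against DMSO stayed within 1.5 times their value in all alternatives. Leaving out each array in turn gave 10861 to 12248 and 10812 to 11888 probe sets. The higher share of UO126 against TSA was 46.7% to 51.7% over all alternatives, and the median of all probe sets moved by no more than 0.03. The smaller UO126 effect was less stable. UO126 against DMSO gave 280 probe sets with arrays centred on the median and 335 without LY294002 and SB202190 in the fit, and 321 to 575 without 1 array. Genes moved the same way numbered 65 and 80, and oppositely 80 and 100, under these 2 settings, 118 oppositely with no filter, and 69 to 125 and 93 to 186 without 1 array. With replicate number as a block, UO126 against DMSO gave 1032 probe sets, and the sort 256 genes moved the same way and 302 oppositely. In that fit 12898 probe sets differed between UO126 and TSA, whose same-numbered arrays were not all correlated over 0.1; the block changed no other count over all probe sets by over 1.5 times and ended no call of UO126 against DMSO among named and listed genes. With no filter, 21202 probe sets passed 1.4-fold and 8595 passed 2-fold, and without 1 array 9930 to 10218 and 4016 to 4136. Of 256 named genes, 225 passed between UO126 and TSA and 12 of these calls ended without 1 array. For UO126 against DMSO these numbers were 68 and 21, and for TSA against DMSO 215 and 10. Many genes were named because they passed, so these numbers do not speak for all genes. Of all genes tested, 59.6%, 3.45% and 58.9% passed in the same order of comparisons. No named gene changed sign in a called difference, while the median of the EGF family list (-0.24) was 0.01 with all probe sets of a gene averaged and that of the Wnt list (0.07) was -0.02 with a mean of 100. Causes were not tested.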

Other observations

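Lists not described above are given here, and their counts are to be read beside those of all genes tested. Of these, 29.0% were higher with UO126 and 30.6% higher with TSA. Interferon-stimulated and class I antigen genes were higher with TSA in 18 of 23 and with UO126 in 2, with a median UO126 minus TSA of -0.93. Rsad2, an antiviral enzyme, was at 24.4 to 36.5 with UO126 and 359 to 486 with TSA, and the class I gene H2-K1 at 1014 to 1277 and 2623 to 2972. Inflammatory mediators were higher with TSA in 11 of 21 and with UO126 in 3. Tnfsf11, which encodes the osteoclast factor RANKL, read 38.6, 29.3 and 34.2 with UO126, 104, 71.9 and 115 with DMSO, and 164, 135 and 147 with TSA. UO126 lowered it (log2 difference -1.49, limma adjusted p = 0.00204) and TSA raised it (0.64, adjusted p = 0.0277), the latter call being lost without TSA replicate 1 or 3 or DMSO replicate 2 (adjusted p of 0.057 to 0.141, and 0.00463 to 0.141 over all alternatives). The chemokine Cxcl12 and the adhesion molecule Vcam1 were higher with UO126, at 585 to 649 against 229 to 248 and 367 to 574 against 97.8 to 135.

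TGF-beta and BMP genes were divided, 10 of 28 higher with UO126 and 11 with TSA, a split near that of all genes. Tgfb3 read 716, 756 and 731 with UO126, 448, 497 and 469.8 with TSA, and 442, 488 and 473 with DMSO, and TSA minus DMSO was 0.01 with an interval of -0.15 to 0.17. Tgfb2, another ligand of the family, was raised by both agents and more by TSA, at 505 to 539.6 with UO126, 1168 to 1356 with TSA and 378 to 420.5 with DMSO. Its rise with UO126 (0.39, adjusted p = 0.0146) was lost without UO126 replicate 3 or DMSO replicate 1 (adjusted p of 0.0591 and 0.0679, and 0.00477 to 0.182 over all alternatives). Id1, a target of BMP signals, was moved oppositely, at 636 to 762 with UO126, 933 to 1080.3 with DMSO and 1839.6 to 3061 with TSA. Its fall with UO126 (-0.59, adjusted p = 0.0358) was lost without UO126 replicate 1 or 3 or any DMSO array (0.0535 to 0.128, and 0.00384 to 0.128 over all alternatives). Of 21 Wnt genes, 8 were higher with UO126 and 7 with TSA, also near the shares of all genes. The Wnt antagonist Frzb read 463, 496 and 516 with UO126, 239, 223 and 216 with DMSO, and 114, 113 and 148 with TSA. Of 19 IGF and FGF genes, 11 were higher with UO126 and 4 with TSA, and Igf1 lay at 597 to 718 against 60.1 to 101. Igf2 overlapped between all groups, at 4685 to 6362 with UO126 and 4415 to 5912 with TSA.

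Imprinted genes were higher with UO126 in 10 of 20 and with TSA in 3, p53 targets in 3 and 7 of 21, and genes of ribosome biogenesis in 13 and 4 of 24. Plk2, a stress-induced kinase, lay at 605 to 670.1 with UO126 and 2223 to 2907 with TSA. Among the remaining cell types, 4 of 6 osteoblast genes were higher with UO126 and 0 with TSA, 2 and 0 of 4 adipocyte genes, 1 and 2 of 4 endothelial genes, 1 and 2 of 4 osteoclast genes, and 0 and 1 of 1 erythroid gene tested. The lipase Lpl read 803, 1037 and 1236 with UO126, 542, 821 and 607 with TSA, and 515, 577 and 521 with DMSO, and rose with UO126 (0.91, adjusted p = 0.00355).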
